A study of Homo sapiens with 18 samples.

Results

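The transcripts described here are those of 10 genes that make, break down or regulate polyamines: ODC1, AMD1, SRM, SMS, SAT1, SMOX, OAZ1, OAZ2, AZIN1 and MTAP. They were followed through every probe set (a group of short array oligonucleotides read as one value) whose deposited gene symbol was one of these names, with SAT read as SAT1 and OAZIN as AZIN1. This gave 26 of 54613 probe sets, of which 20, from 9 of the 10 genes, passed the brightness limit for testing. The limit was a mean log2 signal of 6.98, the median over all probe sets, and 27307 probe sets passed it, those of 12840 genes by deposited symbol. Below it lay all 3 probe sets of SMOX and 1 each of SAT1, AZIN1 and MTAP. The cells were LNCaP, a single androgen-responsive prostate carcinoma line grown out of a lymph node metastasis. All groups were kept in RPMI 1640 with 5% hormone-depleted serum for a 16 h treatment, with 3 arrays each. The 6 groups were vehicle (DMSO), 100 nM dihydrotestosterone (DHT, the androgen), 1 µM or 10 µM enzalutamide (an antiandrogen drug), and the same DHT dose combined with either dose of enzalutamide.

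Polyamines are small positively charged molecules that bind nucleic acids and are needed for growth. Ornithine is turned into putrescine by ODC1, and putrescine is extended to spermidine by SRM and to spermine by SMS, with aminopropyl groups that come from S-adenosylmethionine through AMD1. SAT1 acetylates spermidine and spermine for export or breakdown, SMOX oxidises spermine, antizymes such as OAZ1 and OAZ2 send ODC1 protein to the proteasome, AZIN1 binds antizyme in its place, and MTAP recycles the methylthioadenosine that SRM and SMS release. The normal prostate is known for making and secreting large amounts of spermine.

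Array medians were alike, at log2 values of 6.87 to 7.18. On 2 of the 18 arrays, replicate 2 of DHT and replicate 2 of 1 µM enzalutamide, the 3′ signal of the ACTB control divided by its 5′ signal came to 4.50 and 6.04, against 1.42 to 1.80 on the others. They are called the high-ratio arrays here. Every comparison with DHT alone uses the first of them, and the called differences of the member genes are given below with and without both arrays. The mean log2 signal of KLK3, a classical androgen-response gene, was 10.15 with vehicle and 14.19 with DHT. It was 14.325 and 13.97 with DHT and 1 or 10 µM enzalutamide, and 10.7 and 11.37 with 1 or 10 µM alone. FKBP5 and TMPRSS2, also androgen-response genes, were at 9.47 and 8.48 with vehicle and 13.79 and 13.10 with DHT. With DHT and 1 µM enzalutamide they were at 11.71 and 12.03, and with DHT and 10 µM at 10.22 and 10.78. The luminal markers KLK3, HOXB13, KRT8, KRT18, FOLH1 and TMPRSS2 passed the brightness limit. KRT14, COL1A2, PDGFRB, PTPRC, CD68 and CDH5, markers of other cell types, did not, while the brightest probe sets of KRT5, TP63, COL1A1, DCN, CD3E and PECAM1 did. Whether the 3 arrays of a group stem from separate cultures is not stated in the labels, and p-values here rest on the spread among these arrays, part or all of which may be technical. In such bulk RNA, fewer cells of a kind and less RNA per cell cannot be told apart.

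Promoter windows of 8 of the 10 genes were at hand in the RefSeq table (build GRCh38.p14), 11 windows in all, each from 250 bases before to 50 bases after a gene start. Both strands were searched for the E-box CACGTG, which MYC and related factors bind, the full palindromic androgen response element and its right-hand part TGTTCT, which overlap by definition. CACGTG was in 7.26% of all 35116 windows, and among the members in 1 of the windows of ODC1 and in that of SRM. TGTTCT was in 14.8% of all windows and in none of the 11, and the full element was in 1 of the 35116 and in none of the 11, which says only that these letters are not in these windows. A match is a description and not a binding site. The windows with a match are shown with that of SMS, the member that rose most, for comparison. Capitals mark CACGTG. In the ODC1 window shown (chr2:10447963-10448262, minus strand) it started 29 bases before and 5 bases after the start on which this window is built. The other ODC1 window (chr2:10448278-10448577, minus strand), built on another start, held none. In SRM (chr1:11059969-11060268, minus strand) it started 199 bases before the gene start. The SMS window (chrX:21940459-21940758, plus strand) held none. All 3 were rich in G and C, at 80.7%, 82.0% and 73.3%, against a median of 58.7% over all windows.
ODC1: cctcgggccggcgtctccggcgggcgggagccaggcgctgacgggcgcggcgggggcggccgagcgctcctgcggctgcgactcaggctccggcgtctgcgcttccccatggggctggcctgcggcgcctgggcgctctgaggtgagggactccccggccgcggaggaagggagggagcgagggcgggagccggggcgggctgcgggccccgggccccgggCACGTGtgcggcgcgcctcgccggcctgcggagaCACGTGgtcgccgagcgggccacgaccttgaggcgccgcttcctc
SRM: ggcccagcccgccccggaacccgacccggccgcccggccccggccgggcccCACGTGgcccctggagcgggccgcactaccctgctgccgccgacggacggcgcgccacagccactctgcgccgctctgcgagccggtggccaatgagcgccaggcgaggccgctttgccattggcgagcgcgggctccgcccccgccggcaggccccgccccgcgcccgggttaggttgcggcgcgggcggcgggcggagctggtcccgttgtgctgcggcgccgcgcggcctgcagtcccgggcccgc
SMS: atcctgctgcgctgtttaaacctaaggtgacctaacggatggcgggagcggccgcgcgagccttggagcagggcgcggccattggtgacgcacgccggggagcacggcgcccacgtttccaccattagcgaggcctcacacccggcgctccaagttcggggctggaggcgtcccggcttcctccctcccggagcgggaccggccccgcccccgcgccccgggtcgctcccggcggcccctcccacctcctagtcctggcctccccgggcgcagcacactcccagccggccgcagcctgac

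DHT raised the transcripts of 5 of the 9 tested genes: the 4 synthesis enzymes ODC1, AMD1, SRM and SMS, and the acetyltransferase SAT1. The antizyme genes OAZ1 and OAZ2, the antizyme inhibitor AZIN1 and the salvage gene MTAP were not called in this comparison, and no member was called lower. A gene was called when its brightest probe set had an adjusted p under 0.05 in limma (Benjamini-Hochberg over all 27307 probe sets). Over all 12840 genes, 7.21% were called higher. The median difference of the 9 genes was 0.50 on the log2 scale, against -0.03 over all genes. Counted by probe set, 8 of 20 were called higher, against 5.65% of all. Among all probe sets 1542 were higher and 1921 lower, a split that became 1460 and 995 when each array was centred on its median, which moved the median difference of all probe sets from -0.06 to 0.03. With both high-ratio arrays left out the same 5 genes were called.

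**Figure D1:**
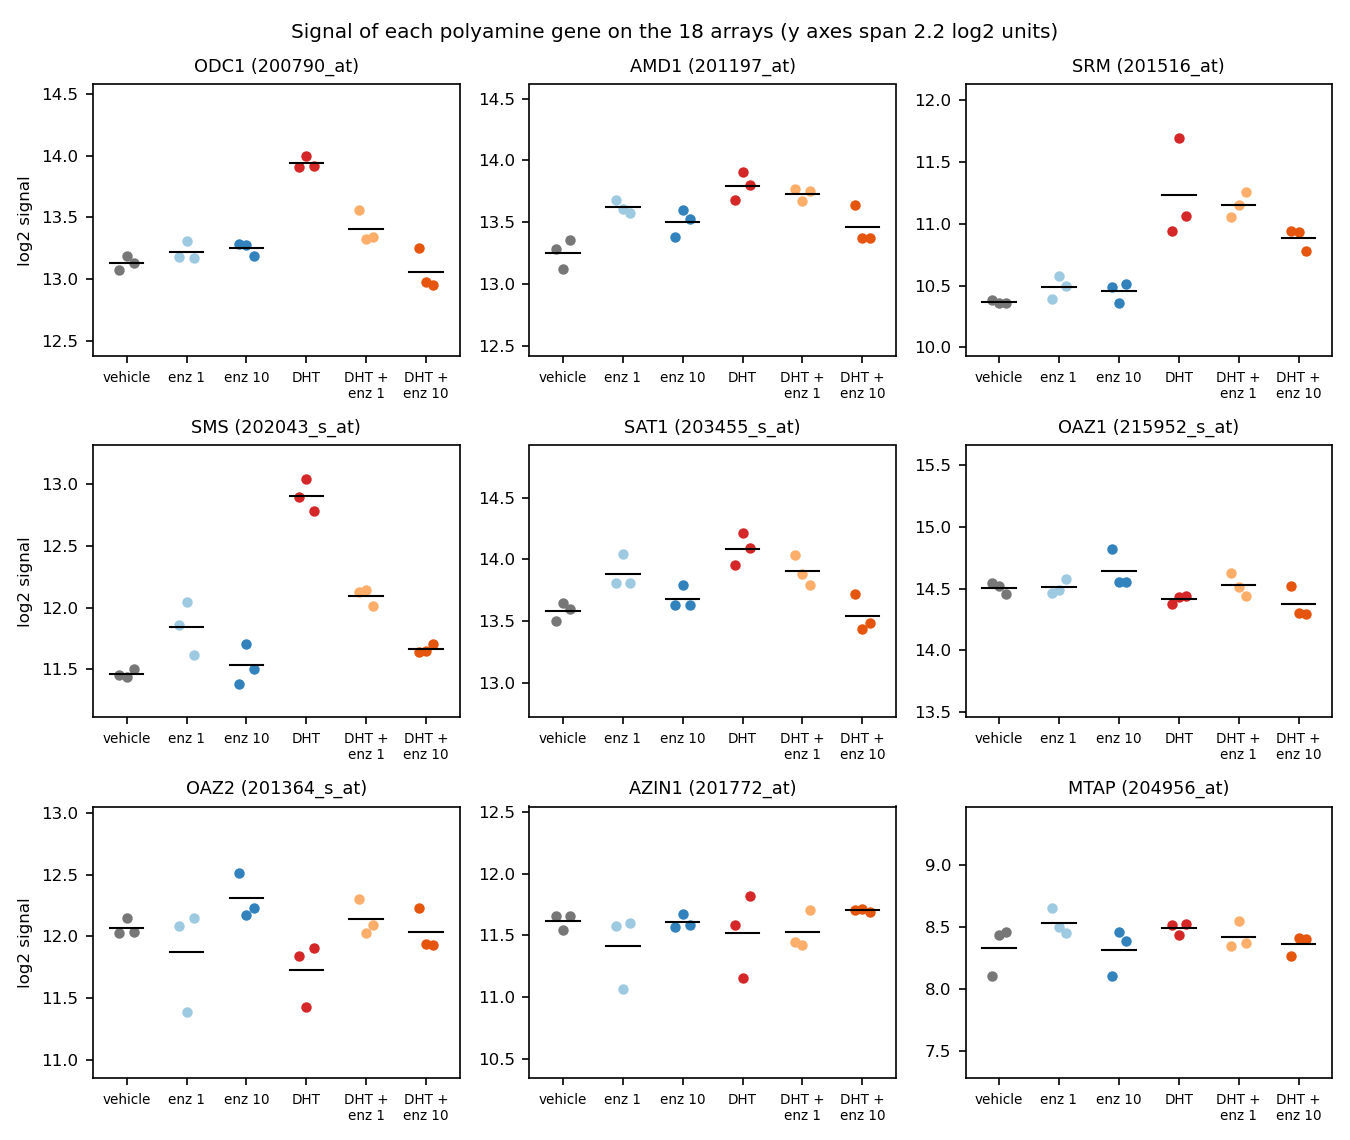
Log2 signal (y axis, 2.2 log2 units in each panel) of the brightest probe set of each of the 9 tested genes on the 18 arrays, by group (x axis, enz 1 and enz 10 standing for enzalutamide at 1 and 10 µM). Points are arrays and bars are group means (n = 3); ODC1 and SMS are highest on the 3 arrays of DHT alone, and SRM is higher on the 9 arrays with DHT than on the 9 without.

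ODC1, the first and rate-limiting enzyme of the pathway, was read by 1 probe set. Its log2 signal was 13.07, 13.19 and 13.13 with vehicle, 13.18, 13.31 and 13.17 with 1 µM enzalutamide, and 13.28, 13.28 and 13.19 with 10 µM. With DHT it was 13.91, 14.00 and 13.92, with DHT and 1 µM enzalutamide 13.56, 13.32 and 13.34, and with DHT and 10 µM 13.25, 12.97 and 12.95. The 3 arrays of DHT alone lay above all 15 others, whose highest value was 13.56. DHT raised ODC1 by 0.81 ± 0.09 (SE of the fit, n = 3 arrays per group) on the log2 scale, a fold of 1.75 (adjusted p = 3.74e-06), and by 0.78 ± 0.09 with both high-ratio arrays left out.

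AMD1 makes the decarboxylated S-adenosylmethionine that both aminopropyl transfers use, and it was read by 2 probe sets. The brighter one (201197_at) was at 13.28, 13.12 and 13.35 with vehicle, 13.68, 13.61 and 13.58 with 1 µM enzalutamide, and 13.38, 13.60 and 13.52 with 10 µM. It was at 13.68, 13.91 and 13.80 with DHT, 13.77, 13.68 and 13.75 with DHT and 1 µM enzalutamide, and 13.64, 13.37 and 13.37 with DHT and 10 µM. All DHT arrays lay above all vehicle arrays, and the DHT and 1 µM enzalutamide groups overlapped. DHT raised this probe set by 0.54 ± 0.09 (adjusted p = 0.000447), and by 0.49 ± 0.10 with both high-ratio arrays left out. The other (201196_s_at) rose by 0.57 ± 0.08 (adjusted p = 6.66e-05), from 12.69, 12.78 and 12.75 with vehicle to 13.20, 13.32 and 13.39, and by 0.56 ± 0.09 without those arrays.

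SRM, spermidine synthase, was read by 1 probe set. With vehicle it stood at 10.39, 10.36 and 10.36, with 1 µM enzalutamide at 10.40, 10.58 and 10.49, and with 10 µM at 10.49, 10.36 and 10.51. With DHT it stood at 10.94, 11.70 and 11.07, with DHT and 1 µM enzalutamide at 11.05, 11.15 and 11.26, and with DHT and 10 µM at 10.94, 10.93 and 10.78. The 9 arrays with DHT, from 10.78 up, all lay above the 9 without it, which reached 10.58. Replicate 2 of DHT, one of the high-ratio arrays, was the highest of all. DHT raised SRM by 0.86 ± 0.14 (1.82-fold, adjusted p = 0.000384), and by 0.63 ± 0.09 (adjusted p = 9.38e-05) with both high-ratio arrays left out.

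SMS, spermine synthase, showed the largest DHT difference among the 20 probe sets. Its single probe set was at 11.45, 11.44 and 11.50 with vehicle, 11.86, 12.04 and 11.62 with 1 µM enzalutamide, and 11.38, 11.71 and 11.50 with 10 µM. It was at 12.89, 13.04 and 12.78 with DHT, 12.12, 12.14 and 12.01 with DHT and 1 µM enzalutamide, and 11.64, 11.65 and 11.71 with DHT and 10 µM. Every array of DHT alone lay above the other 15, which reached 12.14, and the 3 arrays of DHT with 1 µM enzalutamide lay above the 3 with 10 µM. DHT raised SMS by 1.44 ± 0.10, a fold of 2.71 (adjusted p = 3.96e-08), and by 1.37 ± 0.10 with both high-ratio arrays left out.

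SAT1, the enzyme that acetylates spermidine and spermine, had 5 probe sets that differed in level and partly in pattern. The brightest (203455_s_at) was at 13.50, 13.65 and 13.60 with vehicle, 13.81, 14.04 and 13.81 with 1 µM enzalutamide, and 13.63, 13.79 and 13.63 with 10 µM. It was at 13.96, 14.21 and 14.10 with DHT, 14.03, 13.88 and 13.79 with DHT and 1 µM enzalutamide, and 13.72, 13.43 and 13.48 with DHT and 10 µM. The DHT arrays lay above the vehicle arrays and above those of DHT with 10 µM enzalutamide, while they overlapped with both groups at 1 µM. DHT raised it by 0.50 ± 0.10 (adjusted p = 0.00172). The probe sets 210592_s_at and 230333_at rose too, by 0.60 ± 0.12 (adjusted p = 0.00196) and 0.69 ± 0.18 (adjusted p = 0.0138). Without the high-ratio arrays the 3 differences were 0.44 ± 0.09, 0.53 ± 0.09 and 0.89 ± 0.17, all called.

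The remaining SAT1 probe sets did not pass the test. The DHT difference of 213988_s_at was 0.47 ± 0.17 (adjusted p = 0.0783). Its lowest array was replicate 2 of 1 µM enzalutamide at 11.34, and it was called in DHT against vehicle with both high-ratio arrays left out (0.56 ± 0.13, adjusted p = 0.00843). The fifth, 210593_at, lay below the brightness limit, at 5.92, 6.10 and 6.02 with vehicle and 5.98, 5.90 and 5.62 with DHT. On 230333_at the DHT arrays were 9.89, 9.14 and 9.57, above the highest vehicle array at 8.94, and all 6 arrays of DHT with enzalutamide lay below the lowest vehicle array at 8.73. The arrays of 10 µM enzalutamide without DHT all lay below it too, while those of 1 µM without DHT overlapped with vehicle. Against vehicle, 10 µM without DHT stood at -0.47 ± 0.18 (adjusted p = 0.248). The DHT difference was 0.03 ± 0.18 beside 10 µM (adjusted p = 0.98) and -0.52 ± 0.18 beside 1 µM (adjusted p = 0.0585).

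**Figure D2:**
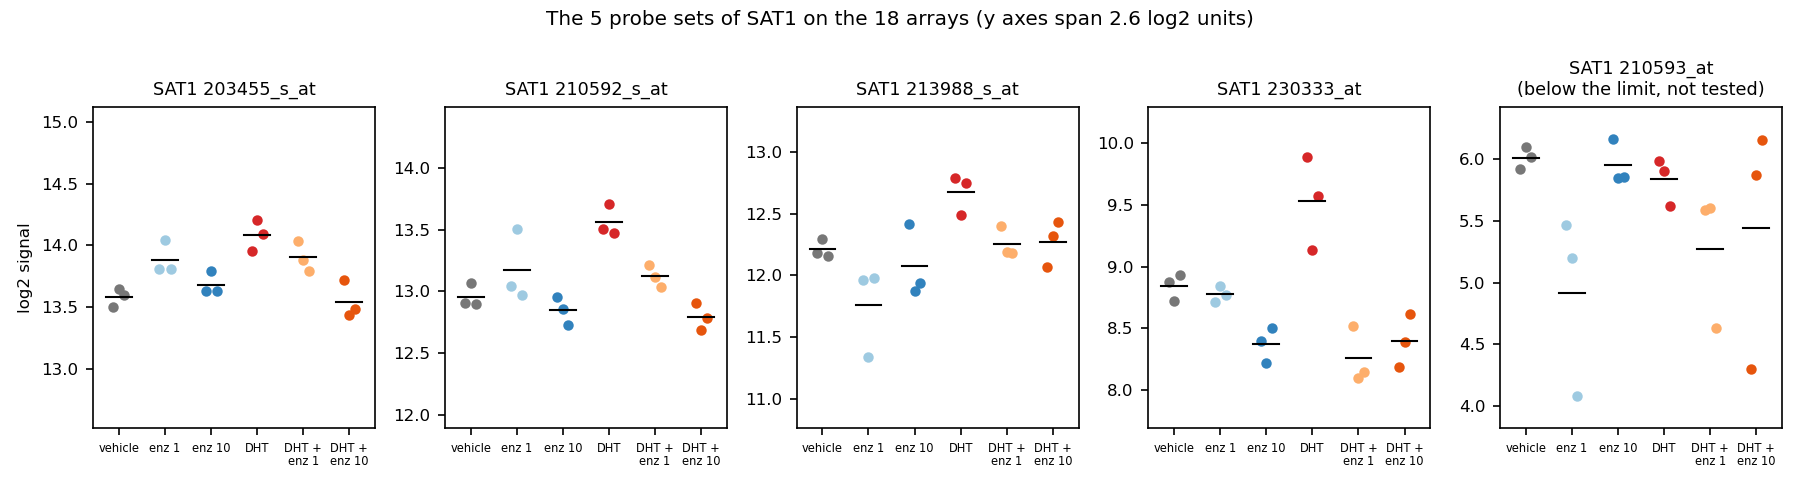
Log2 signal (y axis, 2.6 log2 units in each panel) of the 5 SAT1 probe sets on the 18 arrays, by group (x axis). Points are arrays and bars group means (n = 3); the DHT group has the highest mean on the 4 tested probe sets, and the fifth, under the brightness limit, scatters from 4.08 to 6.17.

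SMOX, which oxidises spermine to spermidine, could not be followed: its 3 probe sets lay below the brightness limit. The brightest (210357_s_at) was at 5.41, 6.57 and 5.58 with vehicle and 5.53, 6.84 and 7.10 with DHT, and ranged from 3.93 to 7.47 over the 18 arrays. The groups overlapped. With no brightness limit its DHT difference was 0.64 ± 0.79 (adjusted p = 0.794), an error too wide to show a change of the size seen in the synthesis enzymes.

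The regulators of ODC1 protein were not called in any of the 10 comparisons made. OAZ1, the antizyme whose translation polyamines themselves raise by frameshifting, was bright and even, with its brighter probe set between 14.29 and 14.82 on all 18 arrays and a DHT difference of -0.09 ± 0.08 (adjusted p = 0.568). OAZ2, a second antizyme, was at 12.02, 12.15 and 12.04 with vehicle and 11.84, 11.43 and 11.90 with DHT on its brightest probe set. These groups did not overlap, but the difference of -0.34 ± 0.17 did not pass the test (adjusted p = 0.24), and it was -0.20 ± 0.11 with both high-ratio arrays left out. The 2 high-ratio arrays held the lowest values of this probe set, 11.43 and 11.39, and the part of RNA quality in its difference was not tested. On 201365_at, another OAZ2 probe set, the DHT difference was -0.28 ± 0.12 (adjusted p = 0.154). At an unadjusted p under 0.05 in limma, the brightest OAZ2 probe set was higher with DHT and 1 µM enzalutamide than with DHT (0.41, adjusted p = 0.271). At that threshold its DHT effect was also higher beside 1 µM than without the drug (0.61, adjusted p = 0.159, 0.22 to 0.75 over the alternatives). Of all genes 15.4% and 22.9% passed that threshold in these comparisons. AZIN1, the antizyme inhibitor, was at 11.66, 11.54 and 11.66 with vehicle and 11.58, 11.15 and 11.82 with DHT, a difference of -0.10 ± 0.15 (adjusted p = 0.744), and its lowest 2 values, 11.15 and 11.07, fell on the same arrays.

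MTAP, which recycles methylthioadenosine toward methionine and adenine, was not called in any comparison either. Its brightest probe set was at 8.10, 8.43 and 8.46 with vehicle and 8.52, 8.44 and 8.53 with DHT, with overlapping groups and a difference of 0.16 ± 0.14 (adjusted p = 0.521). The 5 tested MTAP probe sets did not share a sign: the DHT differences ran from -0.49 ± 0.27 to 0.22 ± 0.29. The lowest of them, on 211363_s_at, was -0.08 ± 0.16 with both high-ratio arrays left out, on which this probe set had its lowest values, 6.61 and 7.0.

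With enzalutamide and no DHT, few of these transcripts were called. At 1 µM, AMD1 was called higher, the only member among 9 genes, with 1.31% of all genes called higher. The AMD1 difference was 0.37 ± 0.09 (adjusted p = 0.0352), and its call was lost under 11 of 26 alternatives, among them with both high-ratio arrays left out (0.38 ± 0.10, adjusted p = 0.0509) and with the 2 groups fitted alone (adjusted p = 0.157). The other AMD1 probe set gave 0.19 ± 0.08 (adjusted p = 0.181). At an unadjusted p under 0.05 there were 3 genes at 1 µM, AMD1, SMS and SAT1, against 23.8% of all genes. The brightest SAT1 probe set stood at 0.30 ± 0.10 (adjusted p = 0.0908) and was not called under any of the 26 alternatives. On 213988_s_at of SAT1 the arrays lay below all vehicle arrays instead, at 11.96, 11.34 and 11.98. SMS stood at 0.38 ± 0.10 above vehicle (adjusted p = 0.0552), with no overlap between the groups, and it was called without replicate 3 of 1 µM enzalutamide (0.49 ± 0.10, adjusted p = 0.0125) but stood at 0.27 with both high-ratio arrays left out (adjusted p = 0.142).

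At 10 µM enzalutamide without DHT, limma called none of the 9 member genes, and 0.483% of all genes in either direction. At an unadjusted p under 0.05 there was 1, AMD1, at 0.25 ± 0.09 (adjusted p = 0.231), while 14.7% of all genes passed that threshold. ODC1 differed from vehicle by 0.12 ± 0.09, SMS by 0.07 ± 0.10 and SRM by 0.08 ± 0.14. The authors' deposited table marked no member probe set in this pair of groups, and 7.05% of the 3717 probe sets it lists by pairs. Both enzalutamide comparisons share the vehicle arrays with the DHT comparison.

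Beside DHT, enzalutamide lowered ODC1 and SMS at 1 µM, and ODC1, AMD1, SMS and SAT1 at 10 µM, each compared with DHT alone. These were 2 of 9 genes at 1 µM, against 1.93% of all genes called lower, and 4 of 9 at 10 µM, against 3.94%. No member was called higher at either dose. By probe set the counts were 3 of 20 (1.61% of all) and 7 of 20 (3.06% of all). Both doses are compared with the same DHT arrays, which are also those of the DHT against vehicle comparison, so the 3 sets of differences are not independent.

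SMS fell by 0.81 ± 0.10 at 1 µM (0.570 times the DHT level, adjusted p = 0.000185) and by 1.24 ± 0.10 at 10 µM (0.424 times, adjusted p = 8.47e-07). ODC1 fell by 0.53 ± 0.09 at 1 µM (adjusted p = 0.00143) and by 0.88 ± 0.09 at 10 µM (adjusted p = 3.69e-06), where 2 of 3 arrays lay below every vehicle array. With both high-ratio arrays left out the differences were -0.74 ± 0.10 and -1.17 ± 0.10 for SMS and -0.51 ± 0.09 and -0.85 ± 0.09 for ODC1, all called. When arrays were centred on their medians the ODC1 difference at 1 µM was no longer called (-0.47 ± 0.14, adjusted p = 0.118).

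The AMD1 probe sets fell at 10 µM by 0.34 ± 0.09 (adjusted p = 0.0337) and 0.49 ± 0.08 (adjusted p = 0.000665). The first of these calls, on the brighter probe set, was lost under several alternatives, among them centring (adjusted p = 0.16) and leaving out both high-ratio arrays (-0.28 ± 0.10, adjusted p = 0.0931), while the second was called under both (-0.48 ± 0.09 without those arrays). At 1 µM AMD1 stood at -0.06 ± 0.09 and -0.14 ± 0.08, neither called.

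SAT1 fell at 10 µM on 3 of its 4 tested probe sets: 203455_s_at by 0.54 ± 0.10 (adjusted p = 0.00195), 210592_s_at by 0.77 ± 0.12 (adjusted p = 0.000483) and 230333_at by 1.14 ± 0.18 (adjusted p = 0.000509). The fourth, 213988_s_at, stood at -0.41 ± 0.17 (adjusted p = 0.17). All 4 were called with both high-ratio arrays left out, at -0.48 ± 0.09, -0.70 ± 0.09, -1.33 ± 0.17 and -0.50 ± 0.13 in the same order.

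At 1 µM only 230333_at of the 4 SAT1 probe sets was called, at -1.28 ± 0.18 (adjusted p = 0.000344). The brightest was at -0.18 ± 0.10 (adjusted p = 0.397), and it was called under 1 of 26 alternatives, quantile normalization (-0.27 ± 0.06, adjusted p = 0.0134). The others were at -0.44 ± 0.12 (210592_s_at, adjusted p = 0.0621) and -0.42 ± 0.17 (213988_s_at, adjusted p = 0.239). Leaving out both high-ratio arrays gave 3 calls: 230333_at (-1.48 ± 0.17), 210592_s_at (-0.37 ± 0.09, adjusted p = 0.0252) and 213988_s_at (-0.51 ± 0.13, adjusted p = 0.0404), while the brightest stood at -0.12 ± 0.09 (adjusted p = 0.546). The SAT1 calls at 1 µM thus varied with the probe set and with these arrays, and the file does not say which transcript forms each probe set reads.

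SRM did not pass the test at either dose. It stood at -0.08 ± 0.14 at 1 µM (adjusted p = 0.831) and at -0.35 ± 0.14 at 10 µM (adjusted p = 0.166). At 10 µM the groups overlapped only in that the lowest DHT array and the highest array with the drug were both at 10.94. With both high-ratio arrays left out the differences were 0.15 ± 0.09 at 1 µM (adjusted p = 0.43) and -0.12 ± 0.09 at 10 µM (adjusted p = 0.523), and without replicate 1 of DHT it was called at -0.50 ± 0.14 (adjusted p = 0.0473), so single DHT arrays decide the 10 µM value.

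**Figure D3:**
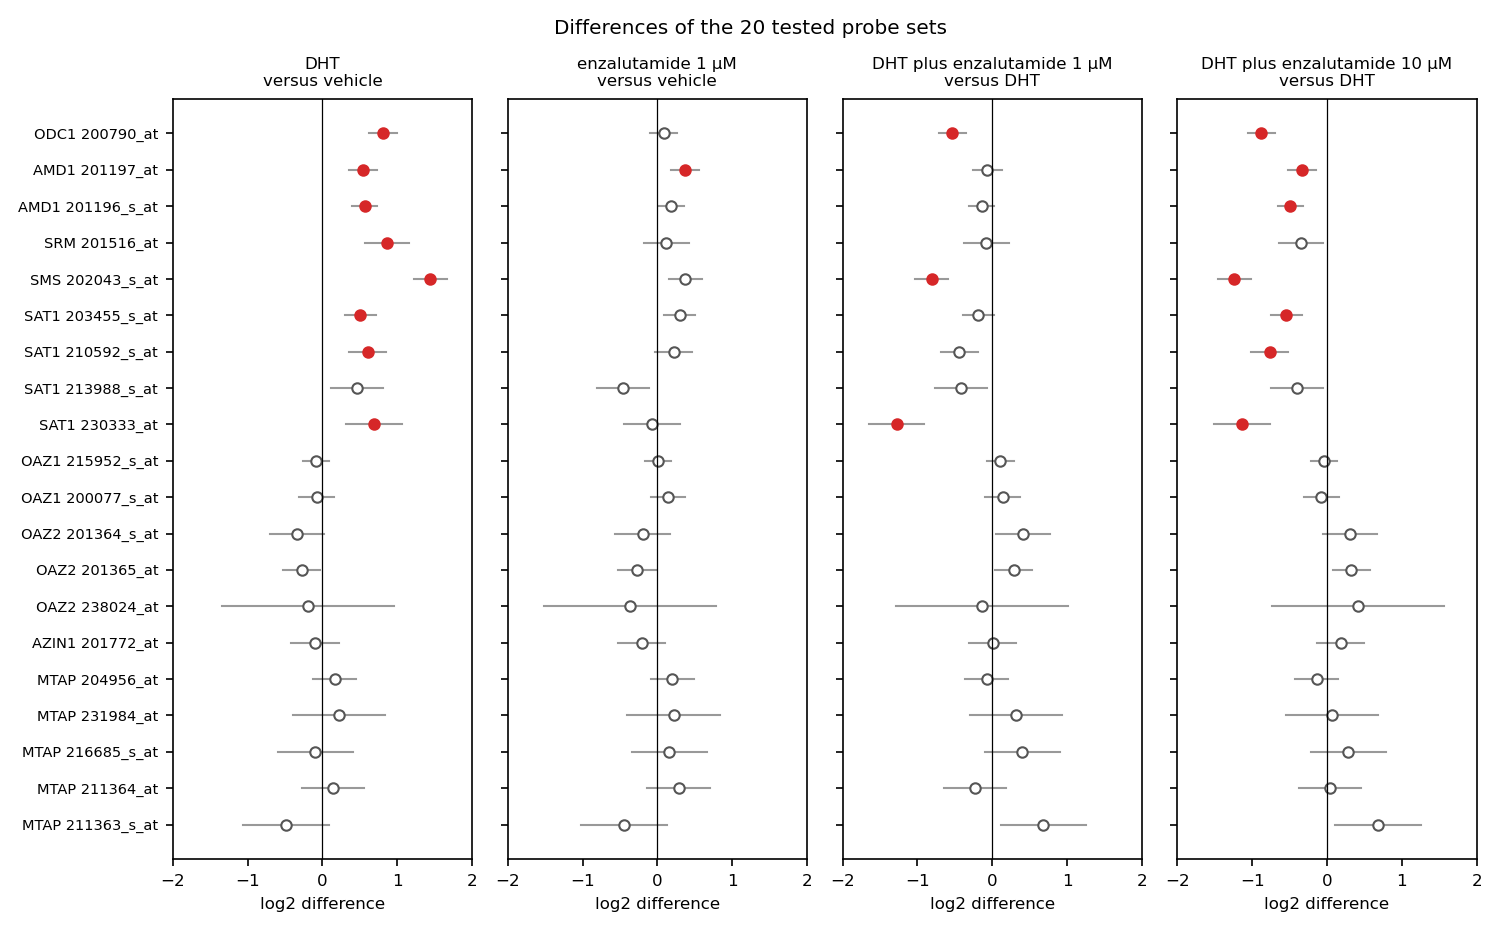
Log2 differences (x axis) of the 20 tested probe sets (y axis) in 4 comparisons, with lines for the 95% intervals of the fit. Filled points are called at an adjusted p under 0.05; 8 lie to the right in DHT against vehicle, 1 in 1 µM enzalutamide against vehicle, and 3 and 7 to the left for enzalutamide added to DHT at 1 and 10 µM.

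The effect of DHT was also taken beside each dose of the drug, as DHT with enzalutamide against enzalutamide alone. Beside 1 µM, SRM was the single gene of 9 called higher, at 0.66 ± 0.14 (1.58-fold, adjusted p = 0.00536), while 9.42% of all genes were called higher. In the same comparison ODC1 stood at 0.19 ± 0.09 (adjusted p = 0.148), SMS at 0.25 ± 0.10 (adjusted p = 0.113), AMD1 at 0.11 ± 0.09 and SAT1 at 0.02 ± 0.10. Centring moved the median of all probe sets here by 0.17, from -0.02 to 0.15. With both high-ratio arrays left out SRM stood at 0.71 ± 0.09, and SMS was called as well (0.36 ± 0.10, adjusted p = 0.0223).

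Beside 10 µM, limma called none of the 9 genes, and 2% of all genes in either direction. At an unadjusted p under 0.05 there were 3, against 15.9% of all genes: SRM at 0.43 ± 0.14 (adjusted p = 0.161), ODC1 at -0.19 ± 0.09 (adjusted p = 0.341) and OAZ1 at -0.27 ± 0.08 (adjusted p = 0.129). SRM was called at the same difference without replicate 2 of DHT (adjusted p = 0.0133) and with both high-ratio arrays left out (0.43 ± 0.08, adjusted p = 0.006), when the shared error was smaller.

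Whether the DHT effect differed with and without the drug was tested as an interaction. At 1 µM it was smaller for ODC1, by -0.62 ± 0.12 (adjusted p = 0.012), and for SMS, by -1.19 ± 0.15 (adjusted p = 0.000469), 2 of 9 genes against 1.57% of all genes. At 10 µM it was smaller for ODC1 (-1.0 ± 0.12, adjusted p = 0.000121), SMS (-1.31 ± 0.15, adjusted p = 6.04e-05), AMD1 (-0.59 ± 0.13, adjusted p = 0.0165) and SAT1 (-0.64 ± 0.14, adjusted p = 0.0148), 4 of 9 against 2.05% of all genes. The same genes were called with both high-ratio arrays left out, ODC1 at -0.55 ± 0.13 and SMS at -1.02 ± 0.14 at 1 µM, and ODC1 at -0.97 ± 0.12, SMS at -1.24 ± 0.13, AMD1 at -0.53 ± 0.13 and SAT1 at -0.58 ± 0.13 at 10 µM. By probe set the counts were 4 and 6 of 20, against 1.42% and 1.57% of all. After centring the arrays, the calls of ODC1 at 1 µM (adjusted p = 0.137) and of AMD1 (adjusted p = 0.148) and SAT1 (adjusted p = 0.117) at 10 µM were lost. AMD1 and SAT1 at 10 µM were also not called without replicate 2 of DHT with 10 µM enzalutamide (adjusted p = 0.0557 and 0.0517). AMD1 was lost as well after quantile normalization (adjusted p = 0.0692), without replicate 2 of vehicle (0.0526) and without replicate 3 of DHT with 10 µM (0.0514). In all, the AMD1 call was lost under 5 of 26 alternatives and the SAT1 call under 2.

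For SRM no difference of the DHT effect was shown at either dose. Its interaction was -0.20 ± 0.20 at 1 µM (95% interval -0.62 to 0.22, adjusted p = 0.584) and -0.43 ± 0.20 at 10 µM (-0.86 to -0.01, adjusted p = 0.289). With both high-ratio arrays left out these became 0.08 ± 0.13 and -0.20 ± 0.12. These intervals still allow a sizeable loss, so they do not show that SRM kept its response in full, and whether SRM differs from SMS in this respect was not tested.

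**Figure D4:**
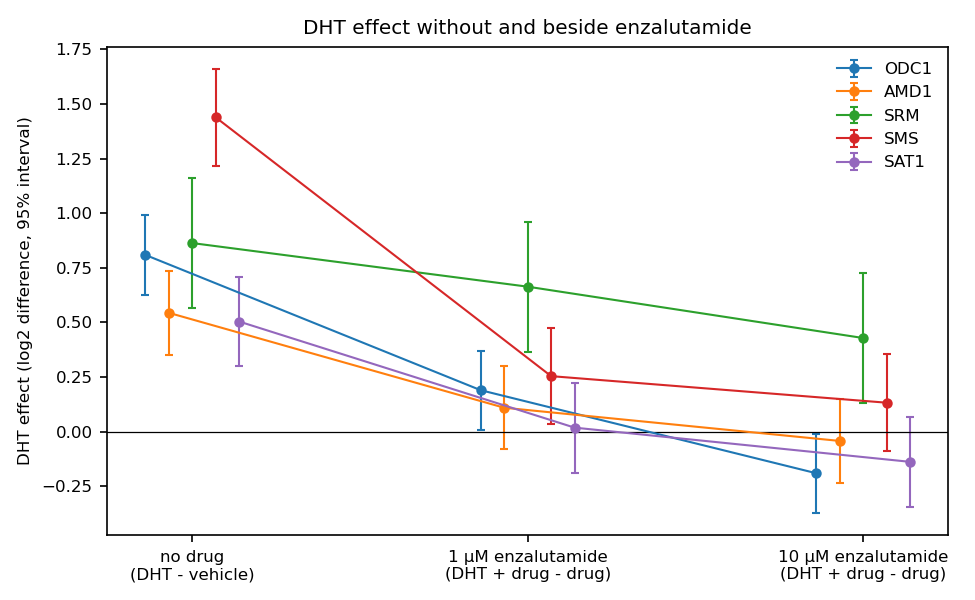
DHT effect as a log2 difference (y axis, points with 95% intervals of the fit) on the brightest probe sets of ODC1, AMD1, SRM, SMS and SAT1, without enzalutamide and beside 1 and 10 µM (x axis). SMS goes from 1.44 to 0.25 and 0.13, ODC1 from 0.81 to 0.19 and -0.19, and SRM from 0.86 to 0.66 and 0.43.

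The step from 1 to 10 µM enzalutamide beside DHT called none of the 9 genes in limma, and 0.0234% of all genes. At an unadjusted p under 0.05 there were 4, each lower at 10 µM, while 4.21% of all genes were lower at that threshold: SMS at -0.43 ± 0.10 (adjusted p = 0.277), SAT1 at -0.36 ± 0.10 (adjusted p = 0.391), ODC1 at -0.35 ± 0.09 (adjusted p = 0.298) and AMD1 at -0.27 ± 0.09 (adjusted p = 0.526). On the brightest probe sets of SMS, SAT1, ODC1, AMD1 and SRM, the arrays at 10 µM all lay below those at 1 µM. The share of all genes with such a separation was not counted, so no dose effect is read from it. With no member gene called in this step, the calls of AMD1 and SAT1 at 10 µM but not at 1 µM against DHT are not shown to be a difference between the doses. Centring moved the median of all probe sets in this step by -0.13, from 0.05 to -0.08.

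The authors' deposited table marks probe sets that passed their own tests. Among the 26 member probe sets 8 were marked for any difference among the groups, against 6.8% of all probe sets: those of ODC1, SRM and SMS, both of AMD1, and 203455_s_at, 210592_s_at and 230333_at of SAT1. Pairs of groups are given there only for the 3717 probe sets so marked. Of the 8, the authors' deposited table marked 7 between vehicle and DHT (68.3% of the 3717), 4 between DHT and DHT with 1 µM enzalutamide (19.3%), and 6 between DHT and DHT with 10 µM (41.2%). Between vehicle and DHT with 1 µM enzalutamide it marked 7 of the 8 (60% of the 3717). Between vehicle and DHT with 10 µM it marked 2 (37.3%), SRM and SMS. In these pairs the authors' p was 0.000206 and 0.000601 for SRM, and 0.000146 and 0.00206 for SMS. DHT against either combination was marked for SMS and not for SRM.

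Around the members, 31 further genes were listed, those of ornithine supply, methionine salvage, transport, hypusination and breakdown and the transcription factor MYC, of which 24 passed the brightness limit. DHT raised 4 of these 24, MYC among them, and lowered 1, a median of 0.09 against -0.03 over all genes, where 7.21% were called higher and 7.56% lower. ARG2, the mitochondrial arginase that makes ornithine, rose from 11.78, 11.80 and 11.78 with vehicle to 13.02, 13.11 and 13.07, by 1.28 ± 0.10 (adjusted p = 8.18e-08). OAT, ornithine aminotransferase, rose by 0.77 ± 0.20 (adjusted p = 0.0172), and APIP, a methionine salvage enzyme, by 0.43 ± 0.08 (adjusted p = 0.00143). AOC1, the diamine oxidase that degrades putrescine, fell from 7.73, 7.95 and 7.82 to 6.73, 7.04 and 6.79, by 0.98 ± 0.22 (adjusted p = 0.00492).

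MYC, a transcription factor for which ODC1 is a classical target, rose with DHT by 0.49 ± 0.12 (adjusted p = 0.0114). Its log2 signal was 10.91, 10.93 and 11.03 with vehicle and 11.40, 11.29 and 11.67 with DHT. It was 11.82, 11.85 and 11.98 with DHT and 1 µM enzalutamide and 11.71, 11.54 and 11.57 with DHT and 10 µM, and all 6 of these arrays lay above the highest array without DHT, at 11.19. The DHT effect on MYC beside the drug was 0.98 ± 0.12 at 1 µM (adjusted p = 6.61e-05) and 0.65 ± 0.12 at 10 µM (adjusted p = 0.00981). ARG2 was called beside the drug as well, at 1.07 ± 0.10 (adjusted p = 2.49e-06) and 0.87 ± 0.10 (adjusted p = 8.75e-05). Beside 1 µM, 4 of the 24 genes were higher (ADI1, ARG2, MAT2A and MYC), against 9.42% of all genes, and AOC1 was lower (6.74% of all genes were). Beside 10 µM, 2 were higher, against 0.919% of all genes. Of the interactions none was called among the 24 at either dose in limma, against 3.79% and 3.94% of all genes in either direction, including MYC (0.48 ± 0.17, adjusted p = 0.124, and 0.15 ± 0.17, adjusted p = 0.711) and ARG2 (-0.21 ± 0.14, adjusted p = 0.384, and -0.41 ± 0.14, adjusted p = 0.138). At an unadjusted p under 0.05 there were 5 and 4 of the 24 in the interactions, against 22.9% and 18.7% of all genes.

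Enzalutamide without DHT called 1 of the 24, APIP, higher at 1 µM (0.35 ± 0.08, adjusted p = 0.0292), where 1.31% of all genes were called higher. At 10 µM limma called none, against 0.483% of all genes in either direction, and 2 had an unadjusted p under 0.05 (14.7% of all genes did). Added to DHT, enzalutamide at 1 µM called none in limma, against 2.91% of all genes in either direction, and 3 had an unadjusted p under 0.05 (15.4% of all genes did). At 10 µM beside DHT it called ARG2 lower (-0.36 ± 0.10, adjusted p = 0.0394), 1 of 24 where 3.94% of all genes were called lower.

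Patterns like those of SMS and ODC1 were looked for as the smallest root mean square difference over the 5 treated group means, each taken minus vehicle, among the brightest tested probe sets of 12755 genes, a count taken after older symbols had been merged into current ones. For SMS the nearest were SPHAR (0.081 log2 units), UBE2J1 (0.086), LOC130355 (0.094), DNAJB9 (0.128) and ACSL3 (0.134). UBE2J1 is a ubiquitin-conjugating enzyme of the endoplasmic reticulum, DNAJB9 a chaperone there, and ACSL3 a long-chain acyl-CoA synthetase. SPHAR, for example, stood at 1.47 with DHT, 0.64 with DHT and 1 µM enzalutamide and 0.37 with DHT and 10 µM. For ODC1 they were the luminal keratin KRT18 (0.087), KNSTRN (0.091), AMACR, a racemase of branched-chain fatty acid metabolism (0.095), GLYATL1 (0.096) and TMSB15A (0.097). Among the other members the nearest to ODC1 was SAT1 (0.169, rank 82 of the 12755 genes) and the nearest to SMS was SRM (0.322, rank 89). These are 5 group means that share the vehicle arrays, and the values describe likeness only.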

How the data were processed

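Total RNA from LNCaP cells was labelled with biotin and read on 18 single-colour arrays, 6 groups of 3, per the labels. Per the submitters' processing notes the authors used MAS5; no source used here gives its version, the array model or further steps. The values the authors deposited per array were log2 signals, per the file headers, and after undoing the log the 2% trimmed mean was 499.9 to 500.0 on every array, so they had been scaled before they were deposited. The authors' deposited table of comparisons gives p-values and marks per probe set, used here only as stated. The values were tested as deposited. Of 54675 probe sets 62 controls were left out, and 27307 at or above a mean log2 of 6.98 were tested with limma 3.58.1 in R 4.3.3: 6 group means, eBayes with an intensity trend, two-sided, 12 residual degrees of freedom (16.7 after moderation), Benjamini-Hochberg over all probe sets tested, called under 0.05. A gene was counted by its probe set of highest mean. The procedure was tested on simulated data. The number of arrays limits the precision. Symbols were brought up to date with the RefSeq table (GRCh38.p14), which also gave the promoters. All member genes, and listed pathway genes called in DHT against vehicle or in an interaction, are named. Not every member probe set is named, and the unnamed ones enter only the counts and ranges. Pathway genes called in other comparisons are named because they were few, after their values were seen. Members and lists were chosen with earlier results of these data known, and some listed marker genes are not reported here. Alternatives were a single probe set per symbol, no brightness limit, centred or quantile-normalized arrays, no trend, only the groups compared, both high-ratio arrays left out, a replicate block, and each array left out. Tables were made with Python 3.11.15, numpy 2.4.6 and pandas 2.3.3, and plots with matplotlib 3.10.9.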

Additional observations from a re-analysis of the deposited data

Results flagged for a closer look

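The DHT effect differed with and without enzalutamide, by the interaction test, on 6 member probe sets at 10 µM and on 4 at 1 µM. Each effect was smaller beside the drug, a direction called for 1.57% and 1.42% of all probe sets. On the log2 scale the differences were -0.62 and -1.0 for ODC1 at 1 and 10 µM, and -1.19 and -1.31 for SMS. For AMD1 at 10 µM they were -0.59 on 201197_at and -0.64 on 201196_s_at. For SAT1 they were -0.64 on 203455_s_at at 10 µM, -0.66 on 210592_s_at at both doses, and -1.21 on 230333_at at 1 µM. After centring the arrays on their medians, ODC1 at 1 µM was not called. Nor were 201197_at of AMD1 and 203455_s_at of SAT1 at 10 µM. On 210592_s_at the interaction at 1 µM was not called with both high-ratio arrays left out (-0.42 ± 0.13, adjusted p = 0.0815), where replicate 2 of 1 µM enzalutamide, at 13.51, had been the highest array of its group.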

How the results depend on the processing

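The count of 5 genes for DHT against vehicle was 5 under all 26 alternatives, and no difference of a member gene changed sign while called. For 1 µM enzalutamide against vehicle the count of 1 was 2 with a single probe set per symbol (AMD1 and SMS), 0 with no brightness limit, 0 after centring, 0 without the trend, 0 with only the groups compared and 0 with both high-ratio arrays left out. Leaving out an array gave 0 to 2. Replicate numbers showed no clear pairing of the arrays. Deviations from the group means correlated at -0.18 to 0.59 over 45 same-numbered pairs of arrays of different groups, 11 of them over 0.1. Over 90 pairs of different numbers the range was -0.52 to 0.39, with 18 over 0.1. The value of 0.59 was between the 2 high-ratio arrays. With a replicate block the count for 1 µM enzalutamide was 2 (SMS gained, adjusted p = 0.0386), and no other call of a gene changed. For DHT with 1 µM enzalutamide against DHT the count of 2 was 1 after centring (SMS). For DHT beside 1 µM the count of 1 was 3 after quantile normalization and 2 with both high-ratio arrays left out, and 1 to 2 when an array was left out. Beside 10 µM it was 1 (SRM) in place of 0 with only the groups compared and with both high-ratio arrays left out, and 0 to 1 when an array was left out. For the interaction at 1 µM the count of 2 was 1 after centring and 2 to 4 when an array was left out, AMD1 and SAT1 being gained without replicate 1 of DHT or replicate 3 of 1 µM enzalutamide. At 10 µM the count of 4 was 2 after centring and 2 to 4 when an array was left out. The cause of these shifts was not tested. Centring also moved the share of higher among all called probe sets, from 33.9% to 21.5% and from 40.9% to 62.1% for enzalutamide at 1 and 10 µM, from 36.8% to 50.3% and from 51.5% to 38.6% for its addition to DHT, from 53.6% to 85.8% for DHT beside 1 µM, and from 58.2% to 75.9% and from 52.2% to 33.3% for the interactions. The count of all called probe sets moved by over 1.5 times in each comparison: the lowest and highest were 2049 and 4023 of a main 3463 for DHT, 1 and 2360 (982) and 17 and 725 (132) for enzalutamide at 1 and 10 µM, 269 and 1040 (695) and 734 and 2336 (1720) for its addition to DHT, 1173 and 5345 (3813) and 183 and 1273 (433) for DHT beside the drug, 297 and 2840 (928) and 396 and 1341 (895) for the interactions, and 1 and 44 (4) for the dose step. Dim signal left SMOX untested.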
